A study of Homo sapiens with 6 samples.

Results

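The genes described here are 36 genes of the ATF4 pathway, amino acid synthesis and amino acid transport, as measured in the mesenchymal triple-negative breast cancer line MDA-MB-231, which is of human origin. They were taken by name from a given list: 8 factors and regulators of the integrated stress response, 6 genes known to be induced through ATF4, 8 enzymes of serine and folate metabolism, 3 enzymes of proline synthesis and gluconeogenesis, and 11 amino acid carriers. All 36 were among the 58733 rows of the deposited count table, and 35 of them were among the 16081 genes that passed the filter on low counts. The cells were kept for 72 h in 2 µM Azeliragon, which inhibits RAGE, a cell-surface receptor of glycated proteins, or in the vehicle DMSO, with 3 libraries of polyadenylated RNA in each condition, lettered a, b and c. The growth medium of both conditions was DMEM-F12 with serum and added L-glutamine. The series used 1 cell line, and no label tells whether libraries a, b and c were separate cultures, so each p-value reflects only the spread among these libraries, possibly technical.

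ATF4 is a transcription factor at the centre of the integrated stress response. When uncharged tRNA, viral RNA, heme shortage or misfolded protein activates a kinase of the translation factor eIF2, general protein synthesis falls while the ATF4 message is translated better, so ATF4 protein is set largely after transcription and its mRNA is an incomplete readout of its activity. ATF4 then pairs with C/EBP factors on C/EBP-ATF response elements and turns on genes for amino acid synthesis, tRNA charging and uptake, together with feedback genes that bring the response to an end.

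The libraries held between 41455979 and 44313584 counts, and 3 reads corresponded to 0.0665 to 0.0723 CPM, the counts relative to the TMM-scaled library total. The members together took 0.582%, 0.580% and 0.584% of all counts with Azeliragon, against 0.568%, 0.540% and 0.545% in DMSO. The library DMSO a lay away from DMSO b and c: on the first principal component, which held 45.4% of the variance, it lay at -0.93, against 13.1 to 16.5 for Azeliragon and -19.9 and -24.1 for DMSO b and c. For members, results are therefore also given without it where that changes a call. The mesenchymal markers of the line were abundant, with VIM at 1834 ± 45.9 CPM with Azeliragon and 2036 ± 253 CPM in DMSO (SD, n = 3 each). PGR and PDGFRA had no read in any library, PTPRC had 3 reads in DMSO b and none elsewhere, and CDH1 had 1 read in Azeliragon a and none elsewhere. ACTA2, with PDGFRA a check for fibroblasts, had 27, 26 and 33 reads with Azeliragon and 48, 30 and 60 in DMSO. The endothelial marker PECAM1 had 7, 12 and 4 reads with Azeliragon and 18, 10 and 15 in DMSO. Neither ACTA2 nor PECAM1 was called (adjusted p = 0.324 and 0.398, edgeR). ERBB2 had 110.3 ± 1.87 CPM with Azeliragon and 109 ± 5.33 CPM in DMSO, and the epithelial marker EPCAM 8.14 ± 0.679 CPM with Azeliragon and 8.97 ± 0.714 CPM in DMSO. ESR1 had 10, 9 and 14 reads with Azeliragon and 0, 0 and 5 reads in DMSO, few reads in either condition.

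A minority of these genes differed between the conditions. Of the 35 members tested, 8 differed between the conditions at an adjusted p under 0.05 (quasi-likelihood test of edgeR, adjusted by Benjamini-Hochberg over all genes tested). The feedback phosphatase subunit PPP1R15A, the amino acid sensing kinase EIF2AK4, the pseudokinase TRIB3 and the carriers SLC7A1 and SLC38A1 were higher with Azeliragon. The glutathione-degrading enzyme CHAC1, the glycine carrier SLC6A9 and the neutral amino acid carrier SLC43A2 were lower. The 8 calls are 22.9% of the members tested, beside 6.27% of all genes tested. The higher calls were 5 of 35 members tested, where 2.75% of all genes were called higher. The lower calls were 3 of 35, where 3.53% of all genes were called lower. The members were chosen with earlier results of these data known, so these shares are descriptive. Over all 35 members the log2 fold changes (Azeliragon over DMSO throughout) had a median of 0.01, beside -0.004 over all genes, with 18 values above 0 and 17 below. The conditions did not overlap for 12 members, or 34.3%, beside 25.3% of all genes. Without DMSO a, 14 members were called, in a fit that called 23.7% of all genes. Without DMSO b, Azeliragon b or Azeliragon c, 5 members were called. These fits called 473, 500 and 448 genes in all, beside 1009 with all 6 libraries. Without DMSO c or Azeliragon a, 6 members were called, in fits that called 819 and 445 genes in all.

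**Figure D1:**
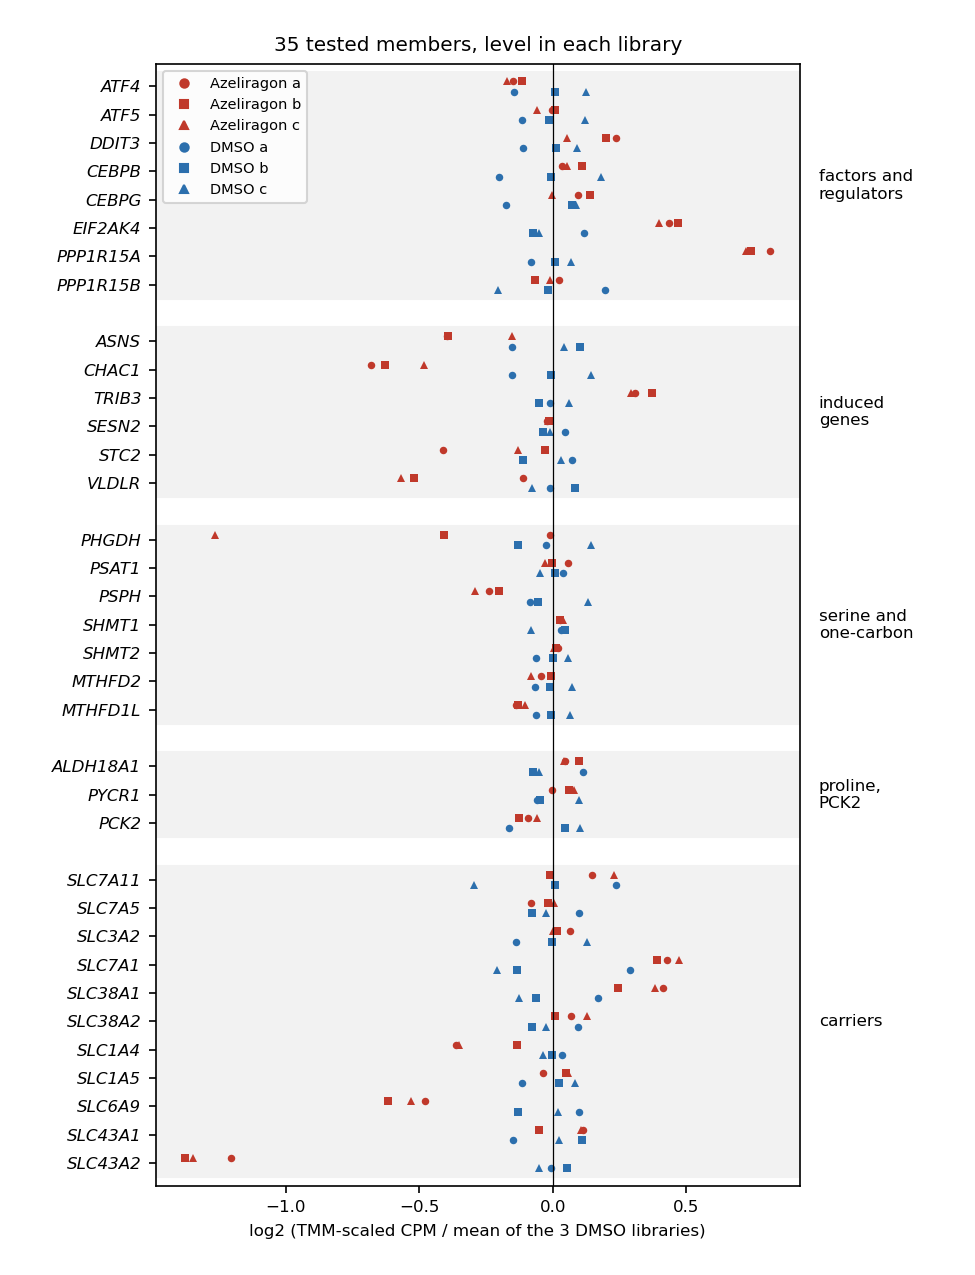
Level of each of the 35 tested members in each library, on the x axis as log2 of the TMM-scaled CPM over the mean of the 3 DMSO libraries, with Azeliragon in red and DMSO in blue and a, b and c as circles, squares and triangles. SLC43A2 lies farthest to the left and PPP1R15A farthest to the right, and most other members have mixed red and blue points around 0.

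Levels within a library were compared between genes only after division by exon length, as TMM-scaled CPM per kb of merged exons. The most abundant members per kb were SLC7A5, the light chain of the large neutral amino acid exchanger, at 264 ± 8.13 with Azeliragon and 270.1 ± 17.1 in DMSO, and ATF4 itself, at 206 ± 4.02 with Azeliragon and 228 ± 21.1 in DMSO. PPP1R15A stood at 136 ± 4.52 with Azeliragon and 80.2 ± 4.25 in DMSO, and its constitutive relative PPP1R15B at 16.6 ± 0.511 with Azeliragon and 16.8 ± 2.33 in DMSO. The mitochondrial serine enzyme SHMT2 (105 ± 0.550 with Azeliragon and 104 ± 4.43 in DMSO), the exchanger heavy chain SLC3A2 (101 ± 2.32 with Azeliragon and 99.1 ± 9.17 in DMSO) and the glutamine carrier SLC1A5 (86.4 ± 3.03 with Azeliragon and 84.8 ± 5.88 in DMSO) were also among the highest. At the other end were asparagine synthetase, ASNS, at 0.665 ± 0.0660 with Azeliragon and 0.824 ± 0.0745 in DMSO, the secreted glycoprotein gene STC2 at 0.209 ± 0.0275 with Azeliragon and 0.237 ± 0.0157 in DMSO, and PHGDH, the first enzyme of serine synthesis, at 0.0952 ± 0.0383 with Azeliragon and 0.132 ± 0.0128 in DMSO. ALDH1L2, a mitochondrial folate enzyme, had 9, 11 and 4 reads with Azeliragon and 16, 0 and 2 reads in DMSO and was the member that did not pass the filter. The genes at the low end rest on few reads, which limits what their fold changes can show. An exon of ASNS also overlaps AC079781.5 on the same strand. How reads in such an overlap were counted is not given, so the level of ASNS is uncertain.

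**Figure D2:**
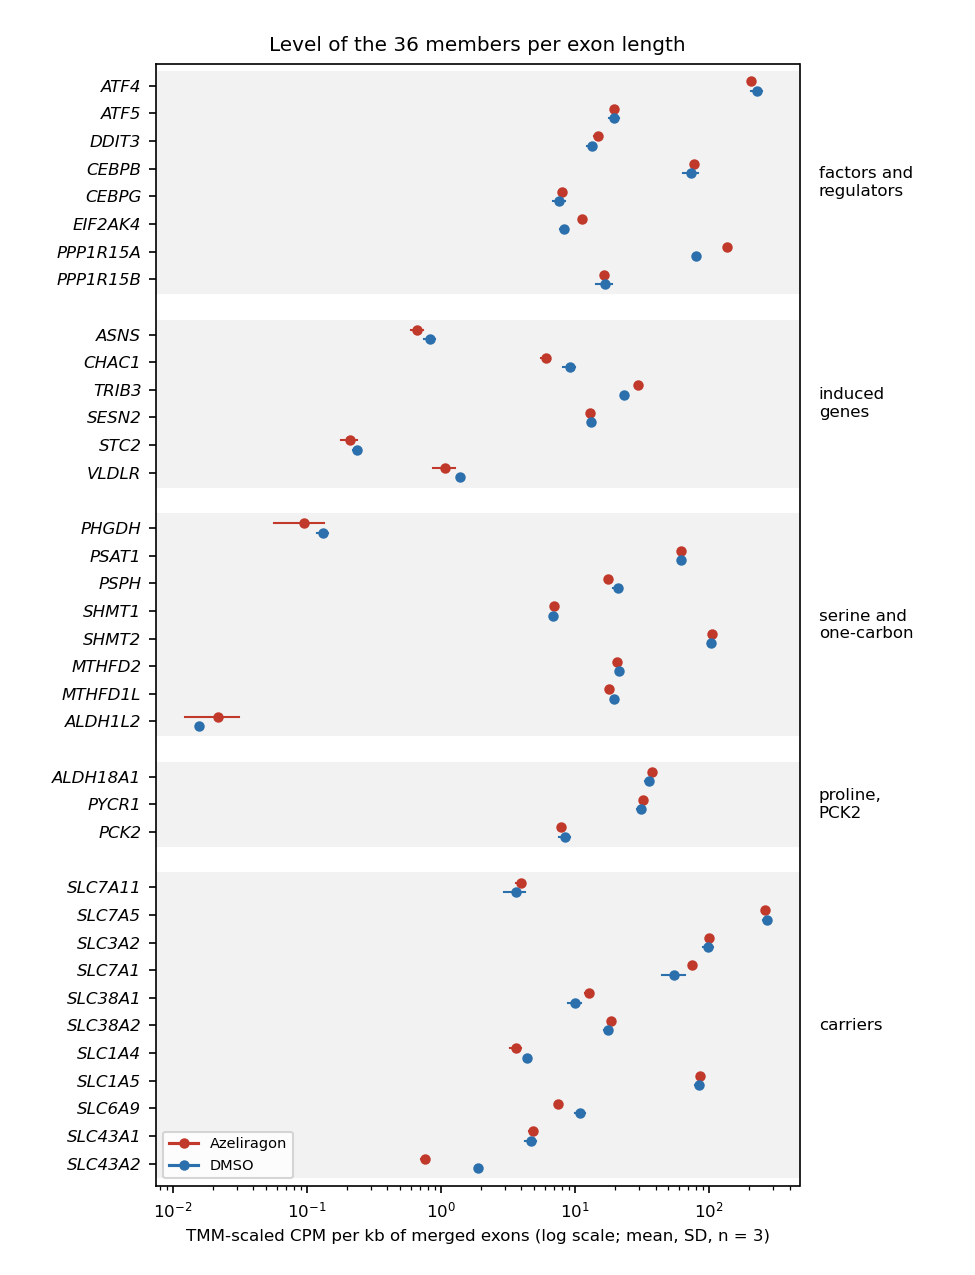
Mean level of the 36 members in TMM-scaled CPM per kb of merged exons on a log axis, with bars for the SD (n = 3), Azeliragon in red above DMSO in blue. SLC7A5 and ATF4 are above 200 CPM per kb in both conditions and ALDH1L2 is lowest. A bar that would reach 0 on this axis, as for ALDH1L2 in DMSO, is left out as a whole.

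PPP1R15A encodes GADD34, which brings protein phosphatase 1 to eIF2 and so reverses the block on translation. It is also a gene that ATF4 and CHOP induce. The gene lies at chr19:48872392-48876057 on the plus strand (GRCh38, GENCODE 29). Its level was 436, 416 and 409.8 CPM with Azeliragon, against 234, 249 and 261 CPM in DMSO, so every Azeliragon library was above every DMSO library by a wide margin. It rose 1.70-fold (log2 fold change 0.76, SE 0.063, 95% interval 0.62 to 0.90, adjusted p = 3.55e-05, edgeR). The call held in each setting tried, with an adjusted p of at most 0.00151 with a library left out. PPP1R15B, which encodes CReP, the constitutive subunit with the same task, had 89.01, 83.7 and 86.9 CPM with Azeliragon and 100.3, 86.6 and 75.99 CPM in DMSO, with DMSO a and c on either side of all Azeliragon libraries (log2 fold change -0.018, SE 0.091, 95% interval -0.22 to 0.18, adjusted p = 0.942, edgeR). The count ratio of PPP1R15A over PPP1R15B within a library was 4.90, 4.97 and 4.71 with Azeliragon, against 2.34, 2.88 and 3.43 in DMSO, a log2 difference of 0.77. The ranges do not overlap, and the two-sided exact permutation p of 0.1 is the smallest that 3 against 3 libraries allow. In all 7 such ratios were computed, for pairs chosen after their values were seen, and adjusted by Benjamini-Hochberg over them the smallest exact permutation p is 0.117. The ratios are of counts, not of levels per length.

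The promoter of PPP1R15A is shown because this member had the largest rise. The RefSeq window from 250 bases before to 50 bases after the start (GRCh38.p14, chr19:48872171-48872470, plus strand) reads, with the cAMP response element palindrome TGACGTCA at -58 to -51 in capitals:
PPP1R15A: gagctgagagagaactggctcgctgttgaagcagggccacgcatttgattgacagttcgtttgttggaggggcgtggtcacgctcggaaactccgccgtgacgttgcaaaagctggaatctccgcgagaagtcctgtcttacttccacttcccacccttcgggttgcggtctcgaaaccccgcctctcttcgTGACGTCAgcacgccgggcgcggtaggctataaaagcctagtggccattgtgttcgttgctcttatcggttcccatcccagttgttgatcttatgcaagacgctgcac
This motif was added after values were seen. It is present on either strand in the windows of 1 of 31 members with a window (3.23%), beside 2.25% of 27305 genes with a window.

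EIF2AK4 encodes GCN2, the eIF2 kinase that binds uncharged tRNA and so reads amino acid shortage. It lies at chr15:39934146-40035591 on the plus strand. The libraries had 135, 138 and 132 CPM with Azeliragon and 108, 94.8 and 96.4 CPM in DMSO, again without overlap and with DMSO a nearest to Azeliragon. The kinase transcript rose 1.35-fold (log2 fold change 0.43, SE 0.069, 95% interval 0.28 to 0.58, adjusted p = 0.00268, edgeR), and it kept its call in every setting, up to an adjusted p of 0.0294 with a library left out.

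The transcription factors of the response were not called. ATF4 (chr22:39519695-39522685, plus strand) had 517, 529 and 509 CPM with Azeliragon, against 519, 576 and 625 CPM in DMSO. The Azeliragon libraries lay together near the level of DMSO a, and DMSO b and c lay above them. The log2 fold change was -0.15 with a 95% interval of -0.30 to 0.01 (adjusted p = 0.280, edgeR). Without DMSO a it was -0.21 with an adjusted p of 0.00166, so the call of a lower ATF4 message turns on that library.

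ATF5, a relative of ATF4 with a similar mode of translation, had 58.2, 58.6 and 55.97 CPM with Azeliragon and 53.8, 57.7 and 63.4 CPM in DMSO (log2 fold change -0.017, 95% interval -0.18 to 0.15). DDIT3 encodes CHOP, a factor that ATF4 induces under longer stress, and had 20.5, 20.02 and 18.1 CPM with Azeliragon and 16.2, 17.6 and 18.6 CPM in DMSO (log2 fold change 0.16, 95% interval -0.037 to 0.37). These intervals reach at most 0.37 on the log2 scale, so a larger rise of either transcript lies outside them. The reads of DDIT3 and ATF5 may include some of genes on the opposite strand, since their exons overlap others and the strand setting is not given in the sources used here. The same holds for CEBPB, VLDLR, SHMT1, SHMT2, MTHFD2, ALDH1L2, PYCR1, SLC7A11, SLC7A5 and SLC1A5. On the same strand, exons of ATF5, DDIT3, ASNS, SHMT1 and PYCR1 overlap those of other genes. CEBPB, a C/EBP partner of ATF4, had 148, 156 and 150.2 CPM with Azeliragon and 126, 144 and 164 CPM in DMSO. Its relative CEBPG had 36.1, 37.2 and 33.7 CPM with Azeliragon and 29.9, 35.5 and 35.9 CPM in DMSO. For both C/EBP genes the DMSO libraries spread wider than the Azeliragon libraries and overlapped them, with log2 fold changes of 0.067 and 0.078 and adjusted p of 0.717 and 0.675 (edgeR). In this group 2 of 8 genes were thus higher, none lower, and the median log2 fold change was 0.07.

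**Figure D3:**
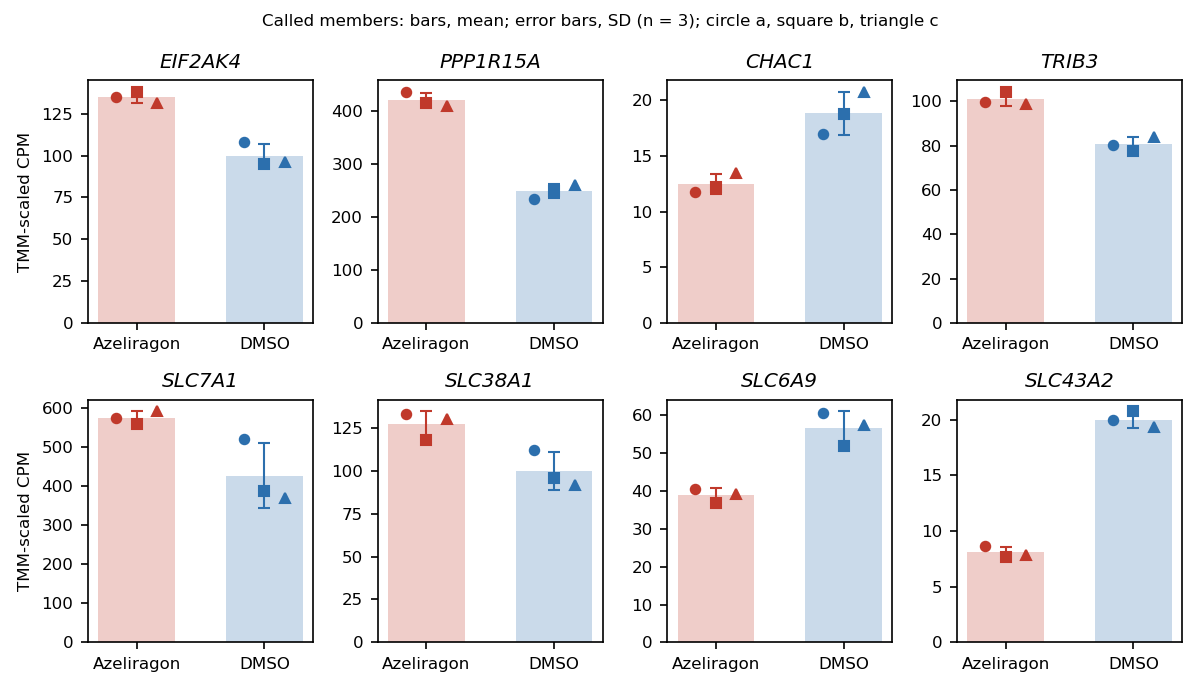
TMM-scaled CPM of the 8 called members, with Azeliragon left of DMSO in each panel, bars for the mean, error bars for the SD (n = 3) and points for libraries a (circle), b (square) and c (triangle). SLC43A2 averages 8.08 against 19.99 CPM and PPP1R15A 421 against 248 CPM, whereas the DMSO libraries of SLC7A1 reach up to 521 CPM, close to the Azeliragon libraries.

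Of the 6 members known as targets of ATF4, CHAC1 was lower, TRIB3 was higher and the other 4 were not called. CHAC1, an enzyme that splits glutathione and is a common marker of ATF4 activity, lies at chr15:40952962-40956519 on the plus strand. It had 11.7, 12.2 and 13.5 CPM with Azeliragon, against 16.9, 18.7 and 20.8 CPM in DMSO, which rests on 505, 531 and 559 reads with Azeliragon and 764, 808 and 896 reads in DMSO. All Azeliragon libraries were below all DMSO libraries, and CHAC1 fell 1.51-fold (log2 fold change -0.59, SE 0.10, 95% interval -0.82 to -0.37, adjusted p = 0.00475, edgeR). The call was kept in every setting, up to an adjusted p of 0.0471 with a library left out. TRIB3, a pseudokinase that restrains ATF4 (chr20:362835-397559, plus strand), went the other way, with 99.8, 104 and 98.8 CPM with Azeliragon and 80.1, 77.7 and 83.99 CPM in DMSO. It rose 1.25-fold (log2 fold change 0.33, SE 0.064, 95% interval 0.19 to 0.46, adjusted p = 0.00928, edgeR). That call was lost without DMSO b (adjusted p = 0.0801) and when Azeliragon a (0.0563), b (0.0810) or c (0.0572) was left out. The log2 fold change of TRIB3 stayed between 0.30 and 0.36 in these fits.

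Setting these genes against each other within a library removes the scaling. The count ratio of CHAC1 over TRIB3 was 0.118, 0.117 and 0.136 with Azeliragon, against 0.211, 0.241 and 0.247 in DMSO, a log2 difference of -0.92. The ratio of CHAC1 over ATF4 was 0.0227, 0.0230 and 0.0265 with Azeliragon, against 0.0326, 0.0325 and 0.0332 in DMSO, a log2 difference of -0.45. Neither pair of ranges overlaps, and DMSO a, which stands apart for many genes, gave the same CHAC1 over ATF4 ratio as DMSO b and c to within the spread shown. For both ratios the two-sided exact permutation p was 0.1, the smallest possible here. With CHAC1 lower and TRIB3 higher in every Azeliragon library, the ranges of CHAC1 over TRIB3 could not overlap. That ratio therefore adds no support to the calls of these genes. Both pairs were chosen after their values were seen.

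VLDLR, a lipoprotein receptor induced through ATF4, had 12.1, 9.13 and 8.801 CPM with Azeliragon, against 12.98, 13.8 and 12.4 CPM in DMSO. The ranges did not overlap, but the difference missed the threshold (log2 fold change -0.38, 95% interval -0.66 to -0.11, adjusted p = 0.104, edgeR). It was called lower without DMSO a (-0.39, adjusted p = 0.0261), without Azeliragon a, its highest Azeliragon library (-0.54, adjusted p = 0.0384), with no filter on low counts (-0.38, adjusted p = 0.0315) and after removal of the trend on GC content and length (-0.44, adjusted p = 0.0370). ASNS makes asparagine and is among the best known ATF4 targets. It rested on 120, 122 and 137 reads with Azeliragon and 149, 170 and 163 reads in DMSO, with a log2 fold change of -0.31 and an interval of -0.66 to 0.042. STC2 had 47, 62 and 55 reads with Azeliragon and 69, 58 and 64 in DMSO, with an interval of -0.70 to 0.33, too wide at this depth to place it on either side of 0. SESN2, a leucine sensor that restrains mTORC1, had 44.8, 45.1 and 44.97 CPM with Azeliragon and 46.9, 44.3 and 45.2 CPM in DMSO. Its interval of -0.16 to 0.13 is narrow, and the libraries of both conditions lay within 3 CPM of each other. Of these 6 targets 1 was higher and 1 lower, with a median log2 fold change of -0.25.

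The C/EBP-ATF response element was looked for in the RefSeq promoter windows (GRCh38.p14) as a description, on both strands. The strict form TGATGCAA was present in the windows of 6 of the 31 members with a window (19.4%), beside 1.08% of all genes with one. The form TGATGNAA, which contains the strict form, was present in 10 members (32.3%), beside 4.46% of all genes. A gene was counted if any of its windows held the element, and genes differ in their number of windows. The list was drawn up around the ATF4 pathway, so these shares describe the list and not the treatment. The strict form was found in 1 of the 8 called members, CHAC1, and the wider form also in SLC7A1 and SLC38A1. The element therefore occurred in members that were lower, in members that were higher and in members that were not called. PSPH, SHMT2, ALDH1L2, PYCR1 and SLC7A11 had no window. The window of CHAC1 (chr15:40953221-40953520, plus strand), with the element on the opposite strand at -209 to -202 in capitals, is shown in full as that of the member with both a call and the strict form:
CHAC1: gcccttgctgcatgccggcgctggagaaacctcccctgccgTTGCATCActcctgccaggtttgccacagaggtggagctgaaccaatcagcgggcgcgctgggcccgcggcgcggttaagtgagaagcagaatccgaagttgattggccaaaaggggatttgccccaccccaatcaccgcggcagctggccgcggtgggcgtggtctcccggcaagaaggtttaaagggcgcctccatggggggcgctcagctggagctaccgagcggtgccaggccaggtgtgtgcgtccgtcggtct
The elements of SLC1A4 and SLC1A5 lie in windows of starts inside the gene, and the windows at their annotated gene starts held none. CEBPG, MTHFD1L and SLC38A1 also had a window without the element. The following 60-base stretches hold the element of members with the strict form that were not called, with the element in capitals. They are read along the gene's own strand from CEBPG at chr19:33374045-33374104 (plus strand), PPP1R15B at chr1:204412008-204412067 (minus strand), MTHFD1L at chr6:150866331-150866390 (plus strand), SLC1A4 at chr2:64989366-64989425 (plus strand, element on the opposite strand) and SLC1A5 at chr19:46784878-46784937 (minus strand):
CEBPG: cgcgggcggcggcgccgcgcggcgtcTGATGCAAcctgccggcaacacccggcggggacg
PPP1R15B: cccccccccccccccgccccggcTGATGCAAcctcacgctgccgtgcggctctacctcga
MTHFD1L: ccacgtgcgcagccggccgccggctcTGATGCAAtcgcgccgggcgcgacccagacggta
SLC1A4: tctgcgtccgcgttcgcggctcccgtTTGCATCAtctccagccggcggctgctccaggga
SLC1A5: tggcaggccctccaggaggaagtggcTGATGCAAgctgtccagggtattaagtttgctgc
The called carriers with the wider form, both with A in place of its N, were SLC7A1 at chr13:29595648-29595707 and SLC38A1 at chr12:46266487-46266546, both on the minus strand:
SLC7A1: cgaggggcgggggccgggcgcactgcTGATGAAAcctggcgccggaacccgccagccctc
SLC38A1: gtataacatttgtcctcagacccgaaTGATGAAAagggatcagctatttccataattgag

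None of the 7 tested enzymes of serine and folate metabolism was called, and their median log2 fold change was -0.04. By edgeR 1 of them, PSPH, had an unadjusted p under 0.05, and DESeq2 and limma-voom called 0 of them. PSPH, the last step of serine synthesis, had 48.9, 50.2 and 47.1 CPM with Azeliragon, against 54.4, 55.5 and 63.2 CPM in DMSO. Every Azeliragon library was below every DMSO library (log2 fold change -0.24, 95% interval -0.41 to -0.076, adjusted p = 0.0913, edgeR), and without DMSO a it was called lower, at -0.28 with an adjusted p of 0.00350. Reads of its near-copy PSPHP1, which had 6.89, 7.98 and 7.19 CPM with Azeliragon and 6.91, 8.18 and 8.46 CPM in DMSO, could be shared with PSPH, so its level is uncertain. PHGDH, the first step, was nearly silent, with 52, 40 and 21 reads with Azeliragon and 54, 48 and 58 in DMSO, and low PHGDH is a known trait of this line. The interval of its log2 fold change, -1.18 to 0.25, is too wide to place it. PSAT1, the step between them, had 140.3, 135 and 132 CPM with Azeliragon and 139, 136 and 130.4 CPM in DMSO, and its interval was -0.12 to 0.14.

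In folate metabolism, SHMT2, which splits serine in mitochondria, had 510.4, 508 and 505 CPM with Azeliragon and 482, 505 and 525 CPM in DMSO, and its cytosolic counterpart SHMT1 had 50.8, 50.8 and 51.1 CPM with Azeliragon and 50.8, 51.4 and 47.02 CPM in DMSO. The intervals of their log2 fold changes were -0.12 to 0.14 for SHMT2 and -0.12 to 0.18 for SHMT1, so a difference of more than about 0.2 in either direction lies outside them. MTHFD2, the mitochondrial dehydrogenase that follows SHMT2, had 101, 103 and 98.2 CPM with Azeliragon and 99.4, 103 and 109 CPM in DMSO, with an interval of -0.18 to 0.095. MTHFD1L, which releases formate, had 89.8, 90.2 and 91.9 CPM with Azeliragon, against 94.6, 98.3 and 103 CPM in DMSO. It was lower in every Azeliragon library, yet by too little to be called (-0.12, adjusted p = 0.300, edgeR). Without DMSO a it was called, at -0.15 with an adjusted p of 0.0415.

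Proline synthesis and PCK2 showed no call either, with a median log2 fold change of 0.05 over 3 genes, 0 of them with an unadjusted p under 0.05 by edgeR and 0 called by DESeq2 or limma-voom. ALDH18A1, which opens the path from glutamate to proline, had 139.5, 145 and 139 CPM with Azeliragon and 146, 128 and 130.4 CPM in DMSO. PYCR1, which closes it, had 89.6, 93.7 and 94.8 CPM with Azeliragon and 86.2, 86.9 and 96.2 CPM in DMSO. PCK2, the mitochondrial enzyme that makes phosphoenolpyruvate, had 33.2, 32.4 and 33.9 CPM with Azeliragon and 31.5, 36.4 and 37.96 CPM in DMSO. In all of them the libraries of the conditions interleaved, and the intervals were -0.084 to 0.21 for ALDH18A1, -0.10 to 0.19 for PYCR1 and -0.28 to 0.094 for PCK2.

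Of the 8 calls 4 fell among the carriers, where 4 of 11 genes were called (36.4%, beside 6.27% of all genes), 2 in each direction. The median log2 fold change of the 11 carriers was 0.03. Leaving out any library but DMSO a left 2 carriers called, in fits that called 445 to 819 genes in all. Without DMSO a, 6 carriers were called, in the fit that called 23.7% of all genes. SLC43A2, which encodes LAT4, a carrier that lets branched-chain amino acids, phenylalanine and methionine pass down their gradient, had the largest change of all members. It lies at chr17:1569267-1628886 on the minus strand. Its level was 8.68, 7.704 and 7.86 CPM with Azeliragon, against 19.9, 20.8 and 19.3 CPM in DMSO, so the conditions were far apart and each was tight, DMSO a included. It fell 2.47-fold (log2 fold change -1.31, SE 0.094, 95% interval -1.51 to -1.10, adjusted p = 1.39e-05, edgeR), with an adjusted p of at most 0.000452 with a library left out. Its relative SLC43A1, or LAT3, had 17.98, 16.03 and 17.9 CPM with Azeliragon and 14.996, 17.9 and 16.9 CPM in DMSO (log2 fold change 0.059, 95% interval -0.15 to 0.27). The count ratio of SLC43A2 over SLC43A1 was 0.483, 0.481 and 0.440 with Azeliragon, against 1.33, 1.16 and 1.14 in DMSO, a 2.58-fold difference without overlap (two-sided exact permutation p = 0.1, the smallest possible). The promoter window of SLC43A2 at chr17:1628785-1629084 (minus strand) is shown for the member with the largest change, and none of the motifs searched was found in its 3 windows:
SLC43A2: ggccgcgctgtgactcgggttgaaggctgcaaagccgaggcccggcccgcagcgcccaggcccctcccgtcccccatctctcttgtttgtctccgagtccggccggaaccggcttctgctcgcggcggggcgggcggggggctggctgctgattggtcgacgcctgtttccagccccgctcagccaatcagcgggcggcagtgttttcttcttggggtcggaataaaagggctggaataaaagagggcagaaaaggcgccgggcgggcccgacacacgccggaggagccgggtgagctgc

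SLC6A9 encodes the glycine carrier GLYT1 and lies at chr1:43991500-44031467 on the minus strand. It had 40.5, 36.8 and 39.1 CPM with Azeliragon, against 60.6, 51.7 and 57.3 CPM in DMSO, again without overlap. The glycine carrier fell 1.46-fold (log2 fold change -0.54, SE 0.08, 95% interval -0.72 to -0.37, adjusted p = 0.00169, edgeR), and the call was kept in every setting, up to 0.0205 with a library left out. An exon of SLC6A9 overlaps CCDC24 on the opposite strand, which had 9.91, 9.77 and 10.03 CPM with Azeliragon and 12.3, 12.3 and 11.1 CPM in DMSO, so some reads may belong to either. The other 7 called members have no exon overlap on the opposite strand in GENCODE 29.

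The carriers that rose bring in cationic amino acids and glutamine. SLC7A1, or CAT1, the main carrier of arginine and lysine (chr13:29509410-29595688, minus strand), had 574, 559 and 592 CPM with Azeliragon, against 521, 388 and 369 CPM in DMSO. DMSO a lay close below the Azeliragon libraries while DMSO b and c were far lower, and the SD in DMSO was 82.7 CPM against 16.5 CPM with Azeliragon. SLC7A1 rose 1.35-fold (log2 fold change 0.43, SE 0.11, 95% interval 0.20 to 0.67, adjusted p = 0.0338, edgeR). Without DMSO a its log2 fold change was 0.60 (adjusted p = 1.42e-09, edgeR). Its call was lost without DMSO b (adjusted p = 0.187), DMSO c (0.0686), Azeliragon a (0.134), Azeliragon b (0.102) or Azeliragon c (0.143), and with libraries scaled by their totals (0.0592). SLC38A1, or SNAT1, a sodium-coupled glutamine carrier (chr12:46183063-46270017, minus strand), had 133, 118 and 129.8 CPM with Azeliragon, against 112, 95.4 and 91.4 CPM in DMSO. Here too DMSO a was the DMSO library nearest to Azeliragon. SLC38A1 rose 1.27-fold (log2 fold change 0.35, SE 0.084, 95% interval 0.17 to 0.53, adjusted p = 0.0293, edgeR), and its call was lost without DMSO b (adjusted p = 0.164), DMSO c (0.0658), Azeliragon a (0.152), Azeliragon b (0.0562) or Azeliragon c (0.142), and with library totals (0.0510). These calls are thus the least stable of the 8, although their direction was the same in every setting.

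**Figure D4:**
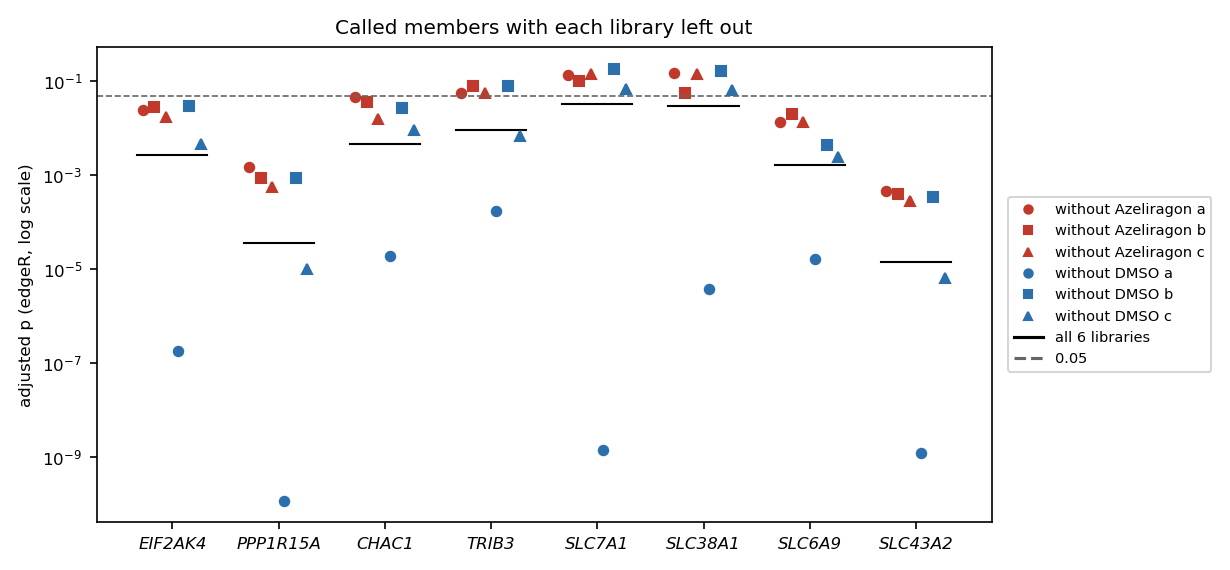
Adjusted p (edgeR, log axis) of the 8 called members with all 6 libraries (black lines) and with each library left out (red, an Azeliragon library; blue, a DMSO library), with the threshold of 0.05 dashed. EIF2AK4, PPP1R15A, CHAC1, SLC6A9 and SLC43A2 stay under the threshold in every case, and SLC7A1 and SLC38A1 stay under it only with all libraries or without DMSO a.

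None of the other SLC7 and SLC38 carriers among the members and lists was called. Nearest to SLC7A1 is SLC7A2, or CAT2, which had 12.1, 12.5 and 12.6 CPM with Azeliragon, against 10.7, 8.97 and 7.903 CPM in DMSO. Its log2 fold change of 0.43 (95% interval 0.18 to 0.69) is as large as that of SLC7A1, without overlap between the conditions, and it missed the threshold narrowly (adjusted p = 0.0518, edgeR). SLC7A6, which also carries cationic amino acids, had 59.7, 55.03 and 59.1 CPM with Azeliragon, against 54.6, 37.3 and 30.9 CPM in DMSO, again without overlap (log2 fold change 0.50, 95% interval 0.16 to 0.84, adjusted p = 0.0892, edgeR). In both, as in SLC7A1, DMSO a was the DMSO library nearest to Azeliragon. SLC7A7, of the same list, went nominally the other way, on 46, 44 and 31 reads with Azeliragon and 49, 56 and 35 in DMSO. Its log2 fold change was -0.17 (95% interval -0.83 to 0.48, adjusted p = 0.796, edgeR), and the conditions overlapped. SLC7A2, SLC7A6 and SLC7A7 are no members and were named after their values were seen. SLC38A2, or SNAT2, which amino acid shortage is known to induce, had 122, 118 and 128 CPM with Azeliragon and 125, 111 and 115 CPM in DMSO (log2 fold change 0.071, 95% interval -0.077 to 0.22). The count ratio of SLC38A1 over SLC38A2 was 1.08, 1.004 and 1.02 with Azeliragon, against 0.900, 0.862 and 0.797 in DMSO, a log2 difference of 0.28 without overlap. SLC7A5 had 1212, 1265 and 1287 CPM with Azeliragon and 1371, 1213 and 1259 CPM in DMSO (interval -0.17 to 0.11). The count ratio of SLC7A1 over SLC7A5 was 0.474, 0.442 and 0.460 with Azeliragon, against 0.380, 0.320 and 0.293 in DMSO, also without overlap, with a log2 difference of 0.48. For both ratios the two-sided exact permutation p was 0.1, the smallest possible. SLC3A2, the heavy chain that SLC7A5 and SLC7A11 share, had 537, 519 and 514 CPM with Azeliragon and 466, 512 and 561 CPM in DMSO. Its ratio to SLC7A5 was 0.443, 0.410 and 0.399 with Azeliragon and 0.340, 0.422 and 0.446 in DMSO, ranges that overlap (exact permutation p = 0.9).

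SLC7A11, the cystine carrier xCT and a target of ATF4, had 38.6, 34.6 and 40.8 CPM with Azeliragon and 41.1, 35.01 and 28.4 CPM in DMSO. The DMSO libraries alone spanned a wider range than the conditions were apart (log2 fold change 0.12, 95% interval -0.14 to 0.39, adjusted p = 0.608, edgeR). Without DMSO a it was called higher, at 0.26 with an adjusted p of 0.0380. SLC1A4, or ASCT1, which carries serine and alanine, had 23.8, 27.8 and 23.9 CPM with Azeliragon, against 31.3, 30.5 and 29.8 CPM in DMSO, with no overlap (log2 fold change -0.28, 95% interval -0.47 to -0.089, adjusted p = 0.0856, edgeR). It was called lower without DMSO a (-0.26, adjusted p = 0.0313) and after the trend on GC content and length was removed (-0.31, adjusted p = 0.0346). Its relative SLC1A5, or ASCT2, the main glutamine carrier of many tumour lines, had 276, 293 and 294 CPM with Azeliragon and 261, 288 and 299 CPM in DMSO, with an interval of -0.12 to 0.17.

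**Figure D5:**
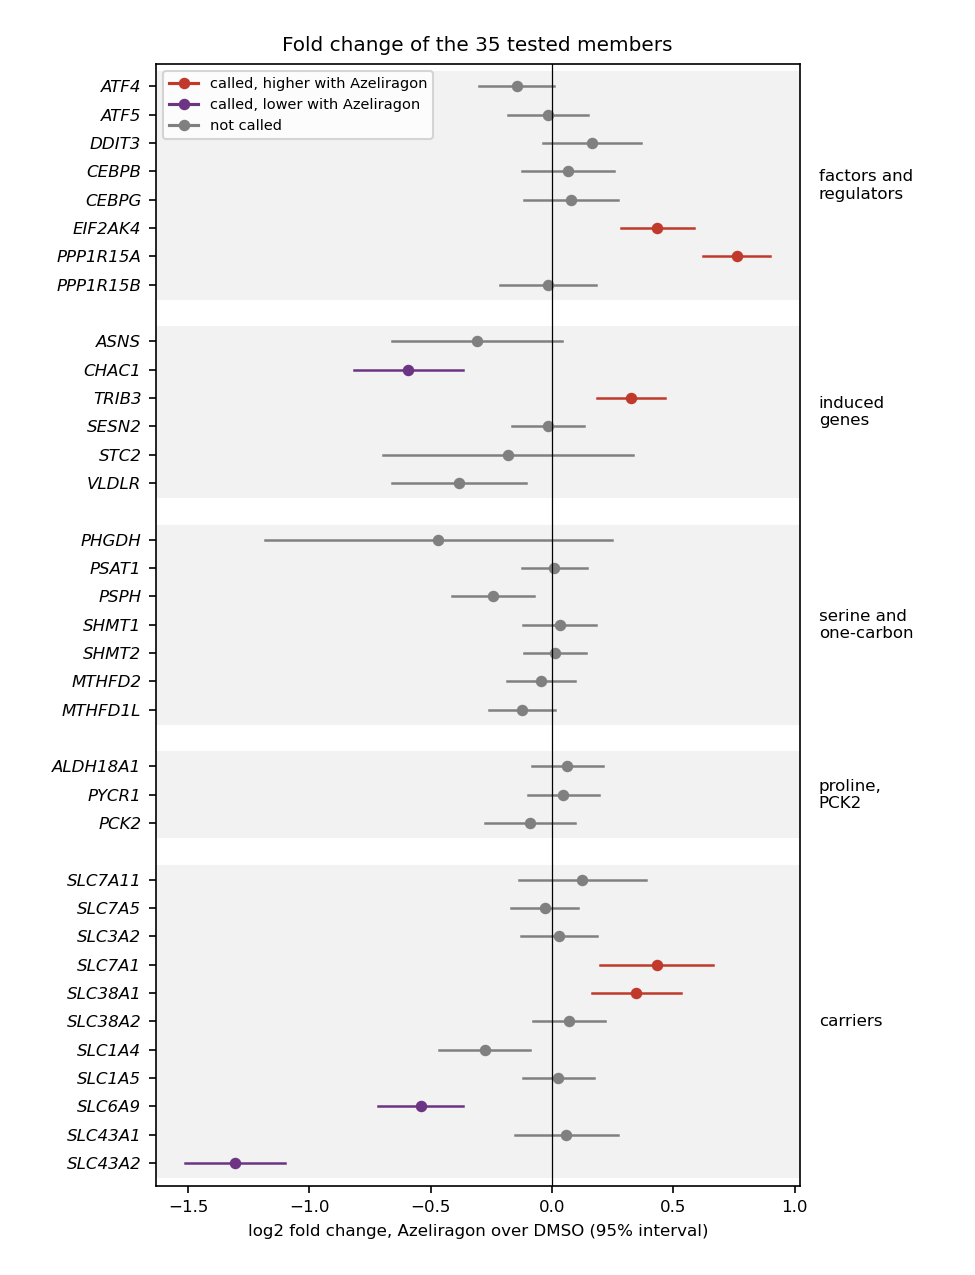
Log2 fold change of the 35 tested members, Azeliragon over DMSO, with 95% intervals on the x axis, in red for called and higher, purple for called and lower and grey for not called. The enzymes of serine, folate and proline metabolism hold no coloured point, and the coloured points of the factors, induced genes and carriers run from -1.31 for SLC43A2 to 0.76 for PPP1R15A.

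Other genes of the same pathways were read from lists, chosen like the members with earlier results of these data known. Upstream of ATF4, a list of 14 genes held other eIF2 kinases, eIF2 and eIF2B subunits, and also GCN1, IMPACT and EIF2A. None was called by edgeR, and 1 had an unadjusted p under 0.05. DESeq2 called 1 of them and limma-voom 0, and the median log2 fold change was -0.008. That unadjusted p was of GCN1, with 451, 455 and 476 CPM with Azeliragon and 445, 354 and 353 CPM in DMSO, without overlap. The log2 fold change of GCN1 was 0.26 (95% interval 0.074 to 0.45, adjusted p = 0.104, edgeR). The log2 fold changes of the other eIF2 kinases, none of them called, were 0.21 (95% interval -0.036 to 0.46) for EIF2AK2, 0.22 (-0.044 to 0.49) for EIF2AK3 and -0.12 (-0.27 to 0.022) for EIF2AK1. The intervals of EIF2AK2 and EIF2AK3 overlap that of EIF2AK4, and the difference between the kinases was not tested. Downstream, none of 20 cytosolic aminoacyl-tRNA synthetases, many of which ATF4 is known to induce, was called by edgeR, with 3 unadjusted p under 0.05, 0 calls by DESeq2 or limma-voom and a median of -0.02. With 6.27% of all genes called, lists of 14 and 20 genes would hold about 1 call each, so counts of 0 do not set these lists apart. Without DMSO a, 4 of the first list and 3 of the second were called, in a fit that called 23.7% of all genes.

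Of 19 tested genes in a further list of ATF4 targets, 5 were called, 1 higher and 4 lower. That share, 26.3% beside 6.27% of all genes, includes INHBE, which is set aside below. SQSTM1, the autophagy receptor p62, had 504, 541 and 542 CPM with Azeliragon, against 379, 342 and 332 CPM in DMSO, and rose 1.51-fold (adjusted p = 0.000264, edgeR). DDIT4, or REDD1, an inhibitor of mTORC1, had 122, 121 and 127 CPM with Azeliragon, against 166, 169 and 207 CPM in DMSO, and fell 1.47-fold (adjusted p = 0.00199, edgeR). Both calls were kept in every setting. CEBPD, a C/EBP factor, had 49.8, 63.2 and 61.6 CPM with Azeliragon and 74.9, 79.5 and 107 CPM in DMSO and fell by 0.58 on the log2 scale (adjusted p = 0.0185, edgeR), a call lost without Azeliragon a or c, with an adjusted p of up to 0.134. HMOX1, heme oxygenase, had 37.4, 39.3 and 39.1 CPM with Azeliragon and 45.4, 48.9 and 56.4 CPM in DMSO and fell by 0.38 on the log2 scale (adjusted p = 0.0218, edgeR), a call lost without any library but DMSO a, with an adjusted p of up to 0.140. INHBE, which encodes an activin subunit, had 3, 5 and 4 reads with Azeliragon and 24, 10 and 19 reads in DMSO (adjusted p = 0.0481, edgeR), and its call was lost with each of the 6 libraries left out. INHBE passed the filter on low counts only through the DMSO libraries, so its call supports no count of this list, which without it has 4 calls, 1 higher and 3 lower.

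The other lists held few calls. Of 22 other amino acid carriers tested, 1 was called: SLC43A3, a relative of SLC43A2 known to carry purine bases, had 237, 227 and 233 CPM with Azeliragon, against 182, 181 and 197 CPM in DMSO, and rose 1.25-fold (adjusted p = 0.00853, edgeR). Leaving out DMSO b, Azeliragon a or Azeliragon c ended its call, with an adjusted p of up to 0.0761. The SLC43 family thus had SLC43A2 lower, SLC43A3 higher and SLC43A1 not called. Of 24 other enzymes and carriers of folate, glycine and proline metabolism, 1 was called: SFXN3, a mitochondrial serine carrier, had 157, 159 and 158 CPM with Azeliragon and 187, 179.5 and 192 CPM in DMSO and fell 1.18-fold (adjusted p = 0.0347, edgeR). Its call was lost without any library but DMSO a, with an adjusted p of up to 0.186. Of 19 genes of amino acid sensing by mTORC1, 1 was called: RRAGD, a Rag GTPase, had 21.4, 20.9 and 18.5 CPM with Azeliragon, against 13.7, 14.6 and 13.8 CPM in DMSO, and rose 1.45-fold (adjusted p = 0.00441, edgeR), in every setting. The shares called in these lists, 4.55%, 4.17% and 5.26%, are near the 6.27% of all genes. Without DMSO a these lists had 7, 7 and 5 calls, in the fit that called 23.7% of all genes, and DESeq2 and limma-voom called 3 and 2 of the other carriers.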

How the data were processed

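Polyadenylated RNA of MDA-MB-231 cells was sequenced in 6 libraries, 3 per condition, per the labels' protocols. The deposited table holds raw counts, and all 6 library columns of it were used. The tools STAR 2.6.1d, featureCounts 1.5.0-p3 and limma and the build GRCh38 are listed without roles, per the submitters' processing notes. Strandedness, the handling of reads with several matches and the gene models used for counting are not given in these sources. Overlaps on either strand and near-copies can therefore share or lose reads. Of 58735 rows, 2 named by a number held 0 counts and were left out.

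Low genes were removed by filterByExpr, and TMM scaling and the fit used edgeR 4.0.16. The test was glmQLFTest after glmQLFit on treatment alone, and p-values were adjusted by Benjamini-Hochberg over 16081 genes. A gene was called at an adjusted p under 0.05. Standard errors are the size of the log2 fold change over the root of its F. Levels are TMM-scaled CPM, and exon length, coordinates and overlaps are from GENCODE 29. Promoter windows are from RefSeq (GRCh38.p14), which matched 31 of 36 members. No library was a copy of another (chi-square over degrees of freedom at least 4.62 for all pairs within a condition). The procedure was tested on simulated counts. All 36 members are named, and of each further list the called genes. The members, lists and alternatives were chosen with earlier results of these data known. Alternatives were library totals or RLE for scaling, no filter, a filter of 1 CPM in 3 libraries with a mean of 50 counts, DESeq2 (version 1.42.0), voom of limma 3.58.1, the replicate letter as a block, leaving out each library, and removal of a trend on GC content and length, fitted per library. That removal was possible for 99.5% of tested genes. R 4.3.3, Python 3.11.15 and matplotlib 3.10.9 were used.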

Additional observations from a re-analysis of the deposited data

How the results depend on the processing

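All 8 called members kept their direction in all 16 other settings. Of their 128 values, 112 kept the call, and the 16 that lost it belong to TRIB3, SLC7A1 and SLC38A1. With 8 members called (5 higher, 3 lower), leaving out a library gave 5 to 14 calls, 2 to 6 higher and 3 to 8 lower. The highest counts came without DMSO a and go with 23.7% of all genes called, and over all genes the calls ran from 445 to 3916, beside 1009. Library totals gave 3 higher members. Removing the trend on GC content and length gave 5 lower members (10 called), the same with the replicate block also 5, and the trend removal without DMSO a gave 15 called and 8 lower. Over all genes the trend removal gave 817 higher and 669 lower, beside 442 and 567, DESeq2 called 1420 and no filter 1685 of 29132 genes. The cause of these shifts was not tested. With the replicate block alone 8 members were called, and of the further genes SFXN3 (adjusted p = 0.0681) and INHBE (0.0915) lost their call. Same-lettered libraries had correlations of deviations of 0.034, 0.035 and -0.098, within the range of -0.143 to 0.129 for pairs with different letters. With 3 libraries per condition these values cannot tell whether same-lettered libraries share a culture or batch. Members whose log2 fold change turned sign were all uncalled and between -0.125 and 0.125 in the fit with all libraries. With the trend removed these were ATF5 (0.063, with the replicate block 0.064), SESN2 (0.058 and 0.059) and SLC7A5 (0.035 and 0.036). With the trend removed and no DMSO a they were ATF5 (0.023), CEBPG (-0.0082), PPP1R15B (0.066), SESN2 (0.092), SHMT1 (-0.0052), SLC7A5 (0.083) and SLC3A2 (-0.0037). With a library left out the values ran from -0.072 to 0.047 for ATF5, -0.024 to 0.17 for CEBPB, -0.0021 to 0.12 for CEBPG, -0.11 to 0.090 for PPP1R15B, -0.036 to 0.0063 for SESN2, -0.014 to 0.030 for PSAT1, -0.0071 to 0.055 for SHMT1, -0.020 to 0.041 for SHMT2, -0.0022 to 0.26 for SLC7A11, -0.069 to 0.021 for SLC7A5, -0.037 to 0.096 for SLC3A2, -0.028 to 0.068 for SLC1A5 and -0.0094 to 0.12 for SLC43A1. Depth limits ALDH1L2, PHGDH, STC2, ASNS and INHBE, which rest on few reads.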
